A study of Mus musculus with 30 samples.

Results

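Livers of A1cf-/- mice were set against livers of wild-type C57BL/6NJ (6NJ) mice, using 3 knockout and 3 wild-type RNA libraries out of 30 samples in the series. These 6 libraries were chosen by their labels and not by any measured value. All mice were 12 months old, and each library was a pool of liver RNA from 3 to 4 mice, sequenced after selection of polyadenylated RNA. To test whether effects differed, 4 pools of livers labelled A1cf_Tg/+ and 4 pools of wild-type C57BL/6J (6J) livers of the same age were also used. The promoter of the transgene and the genetic background of the knockout line are not given in the sources used here. Nothing says whether pools of 1 group shared mice, so the p-values measure the spread between these pools.

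A1CF, the APOBEC1 complementation factor, is an RNA-binding protein of liver, intestine and kidney. It is best known as a partner of the cytidine deaminase APOBEC1, which edits the messenger RNA of apolipoprotein B (apoB), the structural protein of the lipoproteins that carry triglyceride and cholesterol out of the liver and gut. It also binds other transcripts and takes part in alternative splicing in hepatocytes. Counts per gene hold neither edited bases nor exon usage, so the levels of RNA per gene are what is described here. In a pooled tissue, fewer cells of a type and less RNA per cell cannot be told apart.

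The 6 libraries held 25888485 to 35365817 counted reads, and 21360 to 22101 genes had a read. Levels are counts per 1000000 (CPM) scaled by TMM, which corrects for the makeup of each library, unless deposited CPM or RPKM (CPM per 1000 bases of gene) is named. Alb, the albumin gene that marks hepatocytes, was at 47317, 42611 and 44103 CPM in knockout pools and 54146, 51542 and 45129 CPM in 6NJ pools. The Y-linked gene Ddx3y was at 39.9, 47.8 and 39.1 CPM in knockout pools and 48.4, 51.9 and 50.4 CPM in 6NJ pools, and Xist did not exceed 1.06 CPM in any of them, so all 6 pools read as male. Nnt, part of which is deleted in C57BL/6J, had 123 to 131 deposited CPM in knockout pools and 106 to 124 in 6NJ pools, against 41.5 to 69.6 in the other 8 livers. Nlrp12 had 704 to 1029 reads in knockout pools, 352 to 1789 in 6NJ pools and none in the other 8 livers. Of the other livers, 6J pool 2 stood apart: it had 935 deposited CPM of Xist and 0.198 of Ddx3y, and results that use it are given with and without it.

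A1cf RNA was strongly reduced, and not absent, in the libraries labelled A1cf-/-. The gene (ENSMUSG00000052595, GRCm38 chr19:31868761-31949406, plus strand) had 24.4, 19.7 and 29.4 CPM in knockout pools, against 237, 207 and 197 CPM in 6NJ pools. The groups lay far apart, with an 8.71-fold fall, or -3.12 ± 0.15 on the log2 scale (SE, n = 3 pools each). Its adjusted p was 1.59e-05 by edgeR's quasi-likelihood test with Benjamini-Hochberg adjustment over all 15942 genes tested, which is the test behind every adjusted p below unless another is named. Per gene length, A1cf had 6.39, 5.25 and 7.55 RPKM in knockout pools and 61.8, 53 and 51.9 RPKM in 6NJ pools. The 578 to 854 reads that remained in each knockout pool cannot be placed on exons from a count per gene. Over the alternatives run, the log2 difference lay between -3.55 and -2.99, and each of them kept the call.

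Besides A1cf, the targeted gene, Rbm47 was the only one called of 14 genes of the apoB editing machinery tested. It rose, beside 1.50% of all genes rising. RBM47 is another RNA-binding partner of APOBEC1. Rbm47 had 293, 267 and 303 CPM in knockout pools, against 213, 201 and 185 CPM in 6NJ pools. All 3 knockout pools lay above all 3 6NJ pools, a difference of 0.53 ± 0.09 on the log2 scale (SE, adjusted p = 0.0195), and the call was lost without knockout pool 1 or 3 or without 6NJ pool 2 (adjusted p = 0.0752 to 0.118). The deaminase gene Apobec1 had 12.2, 13.6 and 12.4 CPM in knockout pools, against 10.3, 14.7 and 15.8 CPM in 6NJ pools, and these ranges overlap. For Apob, the edited transcript, the values were 12244, 12429 and 12033 CPM in knockout pools, against 11583, 11562 and 13574 CPM in 6NJ pools. The difference of Apob was -0.00 ± 0.11 on the log2 scale (SE, adjusted p = 0.999).

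Several genes typical of skeletal muscle, among them Acta1, Myh2 and Ckm, had reads in every knockout pool and few or none in 6NJ pools, so muscle genes were counted apart from liver genes. Skeletal actin, Acta1, had 1372, 236 and 1012 reads in knockout pools, against 0, 3 and 2 reads in 6NJ pools. Myosin heavy chain Myh2, of fast fibres, had 646, 79 and 342 reads in knockout pools, against 0 reads in all 3 6NJ pools, so it was at least 381-fold higher with a floor of 3 counts over the group. Muscle creatine kinase, Ckm, had 267, 27 and 193 reads in knockout pools, against 1, 0 and 4 reads in 6NJ pools; its call was lost without 6NJ pool 2 (adjusted p = 0.0523). In these genes knockout pool 2 was the lowest of its group and still above each 6NJ pool. Another fast myosin, Myh4, ran in a different order, with 25, 100 and 466 reads in knockout pools and none in 6NJ pools, at least 211-fold higher on the same floor. Titin, Ttn, the spring of the sarcomere, had 112, 24.6 and 82.4 CPM in knockout pools, against 4.1, 2.4 and 2.32 CPM in 6NJ pools, a 25.2-fold rise (adjusted p = 0.00184). Fast calcium pump Atp2a1 differed by 5.18 ± 0.65 on the log2 scale (SE, adjusted p = 0.00374) and muscle cytochrome oxidase subunit Cox8b by 4.22 ± 0.46 on the log2 scale (SE, adjusted p = 0.00146).

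Of 101 skeletal muscle genes in a pair of lists, 53 passed the filter on low counts, and some of these, such as Myh2 and Myh4, passed it through the knockout pools alone. Among the 53, 30 rose and 1 fell, where 1.50% of all genes tested rose and 1.48% fell. A stricter filter, at least 50 reads in 3 pools, can also be met by knockout pools alone, as by Acta1 and Myh2. Under it, 5 of 12 contractile genes and 4 of 5 genes of calcium handling and energy use rose. These counts therefore carry the same selection. The summed level of the contractile list was 139.9 to 407 CPM in knockout pools and 98.5 to 123 CPM in 6NJ pools, with much of the 6NJ sum from Neb. The gene that fell was Xirp1, a protein of actin repair sites in muscle, with 3.42, 2.15 and 1.55 CPM in knockout pools, against 4.3, 7.42 and 6.78 CPM in 6NJ pools. Its difference was -1.38 ± 0.30 on the log2 scale (SE, adjusted p = 0.0412), and it was not called without knockout pool 2 or 3 or without 6NJ pool 2 or 3 (adjusted p = 0.102 to 0.127). Nebulin, Neb, also expressed in the other livers, had 71.5, 44.9 and 78.2 CPM in knockout pools, against 75.3, 86.1 and 63.6 CPM in 6NJ pools, and these ranges overlap. Of the 31 calls, 10 held in each of the 6 fits that left out 1 pool. The 18 rises among contractile genes became 10 without 6NJ pool 2. The 12 rises among genes of calcium handling and energy use became 5 and 4 without knockout pools 1 and 3, and 3 and 5 without 6NJ pools 2 and 3.

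**Figure D1:**
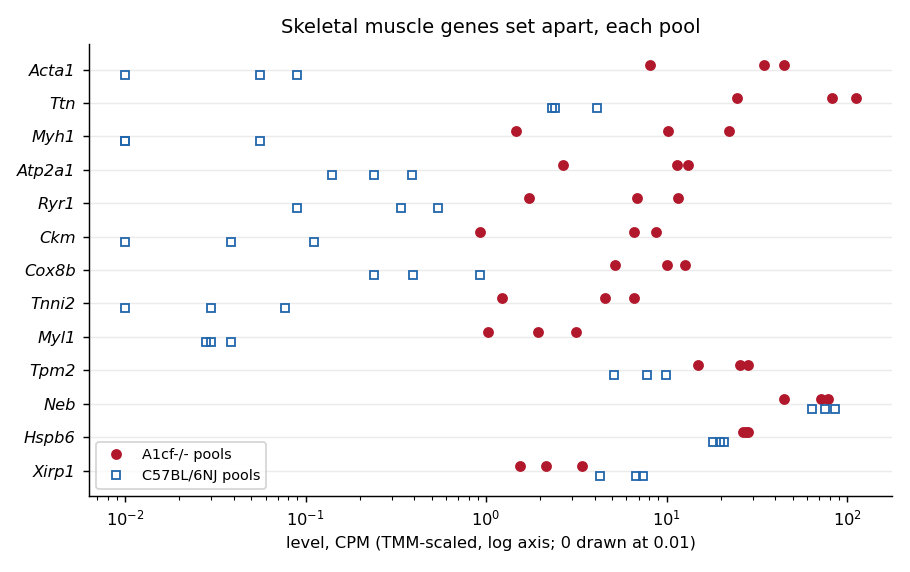
Level of 13 genes set apart as skeletal muscle, in CPM on a log axis with levels of 0 drawn at 0.01, 1 mark per pool: filled circles are the 3 knockout pools and open squares, drawn just under them, the 3 wild-type 6NJ pools. Acta1 was at 44.7, 8.05 and 34.8 CPM in knockout pools and 0, 0.0901 and 0.056 CPM in 6NJ pools, while Neb overlapped and Xirp1 was lower in knockout pools.

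All genes set apart as muscle made up 0.0639%, 0.0258% and 0.0504% of counts in knockout pools, against 0.0189%, 0.0192% and 0.0165% in 6NJ pools. The mean share was 0.0467 ± 0.0193% in knockout pools and 0.0182 ± 0.00147% in 6NJ pools (SD, n = 3 each). This gap of 0.0285 percentage points had p = 0.1 in a two-sided exact permutation test, the smallest that 3 against 3 can give. Besides the 101 listed genes, the set held 124 that followed muscle genes over the other 8 livers, a rule that rests on 6J pool 2, whose share was 1.06%. As that pool also reads as female, the rule took in Xist and female-biased liver genes. Only 5 genes set apart by that rule alone were called, namely St3gal6, Ldhb, 3425401B19Rik, Eef1a2 and Hspb6, which were picked out after their values were seen.

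Of 15942 genes tested, 475 were called at an adjusted p under 0.05, which is 2.98%, and 439 of them were liver genes, 204 higher and 235 lower in knockout livers. A change of at least 2-fold was seen in 90 of the risen and 67 of the fallen liver genes. Protein-coding genes made up 416 of the 439. Knockout and 6NJ pools did not overlap in 3879 genes (24.3%), and all 475 called genes were among these. Setting apart the 101 listed muscle genes alone left 444 calls, 209 higher and 235 lower. The number of liver genes called depended on single pools: it was 114, 248 and 166 without knockout pools 1, 2 and 3, and 610, 178 and 272 without 6NJ pools 1, 2 and 3. With the muscle share of each pool as a covariate it was 15. That share did not overlap between the groups, at 0.0258% to 0.0639% in knockout pools and 0.0165% to 0.0192% in 6NJ pools. A fit with it therefore cannot part muscle RNA from genotype. Besides A1cf, of 112 called genes followed across settings, 12 kept the call with the covariate, 27 with knockout pool 2 as the only knockout pool and 24 in a fit of all 14 pools.

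**Figure D2:**
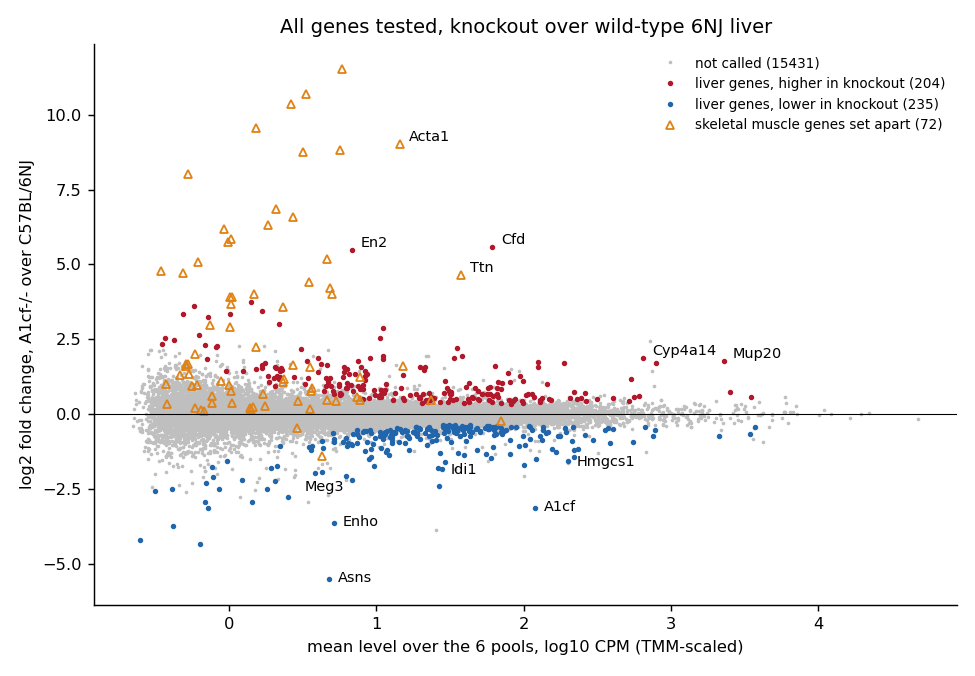
Log2 fold change (knockout over wild-type 6NJ liver) against the mean level over the 6 pools (log10 CPM), 1 mark per gene tested. Liver genes called higher in knockout number 204 and those called lower 235, triangles are the 72 genes set apart as muscle whether called or not, and the 15431 others, in grey, were not called.

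With genes averaging under 2 CPM passed over, Cfd and En2 rose the most among named liver genes whose groups did not overlap, and Asns fell the most. Cfd encodes complement factor D, or adipsin, a protease secreted by fat cells. It had 117, 73 and 169 CPM in knockout pools, against 2.17, 2.1 and 3.14 CPM in 6NJ pools, a 48.0-fold rise with no overlap (adjusted p = 4.97e-05). En2 encodes the homeobox factor engrailed 2, known from midbrain development, and had 11.1, 12.5 and 16.7 CPM in knockout pools, against 0.31, 0.18 and 0.392 CPM in 6NJ pools. That was a difference of 5.49 ± 0.27 on the log2 scale (SE, adjusted p = 1.59e-05). Further rises were 3.01 for the tubulin Tuba8, 2.88 for the adhesion receptor Adgrv1, 2.53 for Kbtbd11, 1.95 for Pcp4l1, 1.89 for the adhesion receptor Adgrg2, 1.88 for the GTPase regulator Arhgap10 and 1.87 for the mitochondrial protein Nipsnap2 (log2 scale, adjusted p = 1.59e-05 to 0.0047). These 9 calls held without any 1 pool. Ifi27l2b rose by 1.86 and the sulfotransferase gene Sult2a7, which has near-identical copies, by 1.78 (adjusted p = 0.0328 and 0.0263). The first was not called without knockout pool 1 or 3 or without 6NJ pool 2 (adjusted p = 0.0756 to 0.101), nor the second without knockout pool 1, 2 or 3 or without 6NJ pool 3 (adjusted p = 0.0753 to 0.0837).

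By the same measure, falls next in size to that of Asns included those of Enho and of imprinted RNAs. Enho, which encodes the secreted peptide adropin, had 0.456, 0.682 and 1.21 CPM in knockout pools, against 6.16, 17.9 and 4.76 CPM in 6NJ pools. It differed by -3.63 ± 0.55 on the log2 scale (SE, adjusted p = 0.0104), a call lost without knockout pool 1 (adjusted p = 0.0562). Rian and Meg3 are noncoding RNAs of 1 imprinted cluster, expressed from the maternal allele. Rian had 0.618, 0.614 and 0.689 CPM in knockout pools, against 4.84, 4.35 and 4 CPM in 6NJ pools, and Meg3 had 2.9, 1.57 and 2.82 CPM in knockout pools, against 13.2, 9.46 and 11.2 CPM in 6NJ pools. The differences were -2.77 ± 0.22 on the log2 scale (SE, adjusted p = 0.000266) and -2.21 ± 0.23 on the log2 scale (SE, adjusted p = 0.00115), with all knockout pools below all 6NJ pools. Also lower were the mannosyltransferase gene Dpy19l3 (-2.38), the synaptic scaffold gene Pclo (-1.96), the water channel gene Aqp4 (-1.93) and Ccdc171 (-1.73), with adjusted p = 0.000266 to 0.0121. Adgrf1 (-2.23), the calpain gene Capn8 (-2.07) and the melatonin receptor gene Mtnr1a (-1.73) passed the test as well (adjusted p = 0.0177, 0.0136 and 0.0328). Their calls were lost without knockout pool 1, 2 or 3 (adjusted p = 0.0541 to 0.0764), without knockout pool 1 or 3 or without 6NJ pool 2 (adjusted p = 0.052 to 0.0761) and without knockout pool 1, 2 or 3 or without 6NJ pool 3 (adjusted p = 0.0528 to 0.141), in that order of genes.

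**Figure D3:**
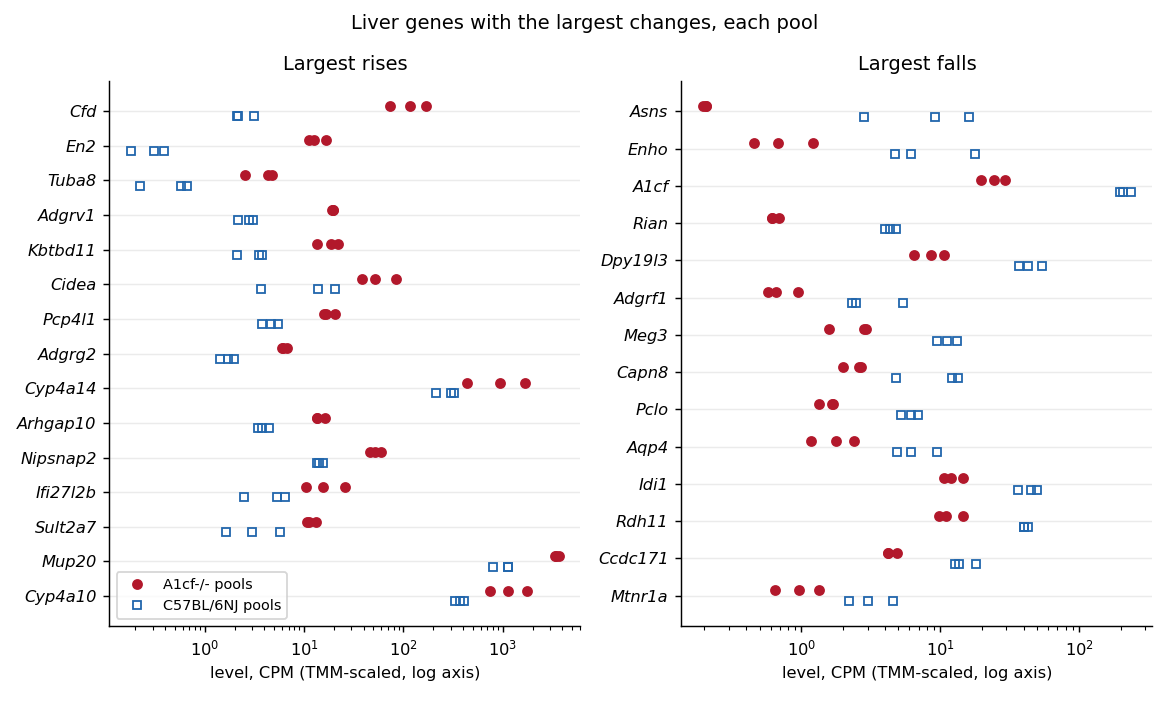
CPM (log axis) of the 15 liver genes with the largest rises and 14 with the largest falls, 1 mark per pool: filled circles are the 3 knockout pools and open squares, drawn just under them, the 3 wild-type 6NJ pools. En2 was at 11.1 to 16.7 CPM in knockout pools and at most 0.392 in 6NJ pools.

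Hepatocytes make cholesterol from acetyl-CoA in a chain of enzymes whose genes are switched on together by the transcription factor SREBP2 when membrane sterol is low. Its partner NF-Y binds the CCAAT box, which is common in promoters of these genes. Of 26 genes of this pathway tested, 12 fell and none rose, beside 1.48% of all genes falling. The estimate was below 0 for 25 of 26, the median log2 difference was -0.86 against -0.01 over all genes, and the pools did not overlap for 20 of 26, beside 24.3% of all genes. The enzymes that fell spanned the chain. The promoters of a few are shown because these genes moved together, from 250 bases upstream of the start up to it (RefSeq, GRCm38.p6), read on the gene's strand, with CCAAT or its reverse complement ATTGG in capitals. They lie at chr13:119690101-119690350, plus strand, at chr13:8885356-8885605, plus strand, at chr5:4104698-4104947, minus strand, and at chrX:72918271-72918520, plus strand, in the order below.

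Hmgcs1: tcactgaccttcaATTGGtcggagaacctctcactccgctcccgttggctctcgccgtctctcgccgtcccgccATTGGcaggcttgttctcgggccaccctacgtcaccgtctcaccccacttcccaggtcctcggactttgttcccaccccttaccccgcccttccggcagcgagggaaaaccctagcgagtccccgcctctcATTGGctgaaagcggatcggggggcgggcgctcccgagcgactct
Idi1: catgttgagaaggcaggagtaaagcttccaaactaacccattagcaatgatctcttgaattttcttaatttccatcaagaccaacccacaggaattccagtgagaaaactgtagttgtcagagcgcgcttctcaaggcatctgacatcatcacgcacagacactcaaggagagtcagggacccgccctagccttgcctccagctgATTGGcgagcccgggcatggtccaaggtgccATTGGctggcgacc
Cyp51: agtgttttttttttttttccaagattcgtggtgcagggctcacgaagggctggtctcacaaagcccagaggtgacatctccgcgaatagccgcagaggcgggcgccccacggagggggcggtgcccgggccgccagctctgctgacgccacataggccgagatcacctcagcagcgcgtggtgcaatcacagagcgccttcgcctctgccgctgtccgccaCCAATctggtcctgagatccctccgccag
Nsdhl: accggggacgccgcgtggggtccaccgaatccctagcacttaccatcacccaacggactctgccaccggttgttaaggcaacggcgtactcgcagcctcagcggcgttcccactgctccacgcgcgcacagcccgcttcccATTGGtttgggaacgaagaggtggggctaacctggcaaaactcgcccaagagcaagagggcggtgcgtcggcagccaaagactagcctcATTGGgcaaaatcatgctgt

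CCAAT, on either strand, was present in this window in 10 of 10 fallen genes that had a promoter in the table and in 18 of 20 (90.0%) tested members of the pathway, against 4447 of 11164 (39.8%) promoters of all genes tested. Searched on both strands too, CACCCCAC, a sterol element sequence, was in 1 of 10 fallen genes, Hmgcs1, against 3.45% of all promoters. A match is a description of letters and not a binding site.

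Several early steps of the chain were lower. Hmgcs1, HMG-CoA synthase, had 87.3, 101 and 114 CPM in knockout pools, against 282, 316 and 297 CPM in 6NJ pools. All knockout pools lay below all 6NJ pools, with a difference of -1.57 ± 0.11 on the log2 scale (SE, adjusted p = 0.000179). Idi1, which isomerises isopentenyl diphosphate, had 10.6, 11.9 and 14.5 CPM in knockout pools, against 36.5, 44.9 and 49.8 CPM in 6NJ pools, or -1.83 ± 0.15 on the log2 scale (SE, adjusted p = 0.000266). Mvd, which makes that isoprenoid unit, had 6.38, 6.24 and 7.95 CPM in knockout pools, against 16.3, 22.2 and 11 CPM in 6NJ pools, or -1.26 ± 0.23 on the log2 scale (SE, adjusted p = 0.0209), and its call was lost without knockout pool 1, 2 or 3 or without 6NJ pool 2 (adjusted p = 0.0551 to 0.108). Fdft1, squalene synthase, had 56, 53 and 64.6 CPM in knockout pools, against 104, 124 and 85 CPM in 6NJ pools, or -0.85 ± 0.14 on the log2 scale (SE, adjusted p = 0.0124), and lost its call without knockout pool 1 (adjusted p = 0.0761).

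Downstream of squalene, several enzymes that form and trim the sterol rings were lower as well. Sqle, squalene epoxidase, had 26.7, 29.3 and 39.3 CPM in knockout pools, against 61.2, 104 and 98.1 CPM in 6NJ pools, with no overlap and a difference of -1.47 ± 0.20 on the log2 scale (SE, adjusted p = 0.00653). Cyp51, the lanosterol demethylase, had 56.6, 60.1 and 75 CPM in knockout pools, against 155, 194 and 185 CPM in 6NJ pools, or -1.48 ± 0.13 on the log2 scale (SE, adjusted p = 0.000474). Removal of the methyl groups at carbon 4 involves Msmo1, Nsdhl and Hsd17b7 in turn. Msmo1 fell by 1.02 and Hsd17b7 by 1.08 on the log2 scale (adjusted p = 0.00242 and 0.000257). Nsdhl had 28, 21.3 and 46.1 CPM in knockout pools, against 79.5, 86.5 and 72.3 CPM in 6NJ pools, or -1.32 ± 0.23 on the log2 scale (SE, adjusted p = 0.0181), and was not called without knockout pool 1 or without 6NJ pool 2 (adjusted p = 0.066 to 0.0983). The desaturase gene Sc5d was at -0.87 ± 0.14 (SE, adjusted p = 0.0133), lost without knockout pool 1 or without 6NJ pool 2 (adjusted p = 0.0532 to 0.0684). The sterol reductase gene Tm7sf2 was at -0.71 ± 0.14 (adjusted p = 0.0269), lost without knockout pool 1 or 2 or without 6NJ pool 2 (adjusted p = 0.0832 to 0.141). Rdh11, a retinal reductase and not a sterol enzyme, is in the list as a gene driven by SREBP; it had 9.77, 11 and 14.5 CPM in knockout pools, against 40.2, 43 and 40.3 CPM in 6NJ pools, or -1.81 ± 0.14 on the log2 scale (SE, adjusted p = 0.000246).

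Other members of the pathway did not pass the test. Srebf2, which encodes SREBP2, was at -0.39 ± 0.09 and Fdps, farnesyl diphosphate synthase, at -1.24 ± 0.28 (SE, adjusted p = 0.0525 and 0.0511). The 12 calls became 7 without knockout pool 1 and 8 without 6NJ pool 2, and the median stayed between -0.97 and -0.69 when any 1 pool was left out. With the muscle share as a covariate 0 of 26 were called, while 24 had an unadjusted p under 0.05 and the median was -1.14. With knockout pool 2 as the only knockout pool, 10 fell, and in the fit of all 14 pools, 6 fell.

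**Figure D4:**
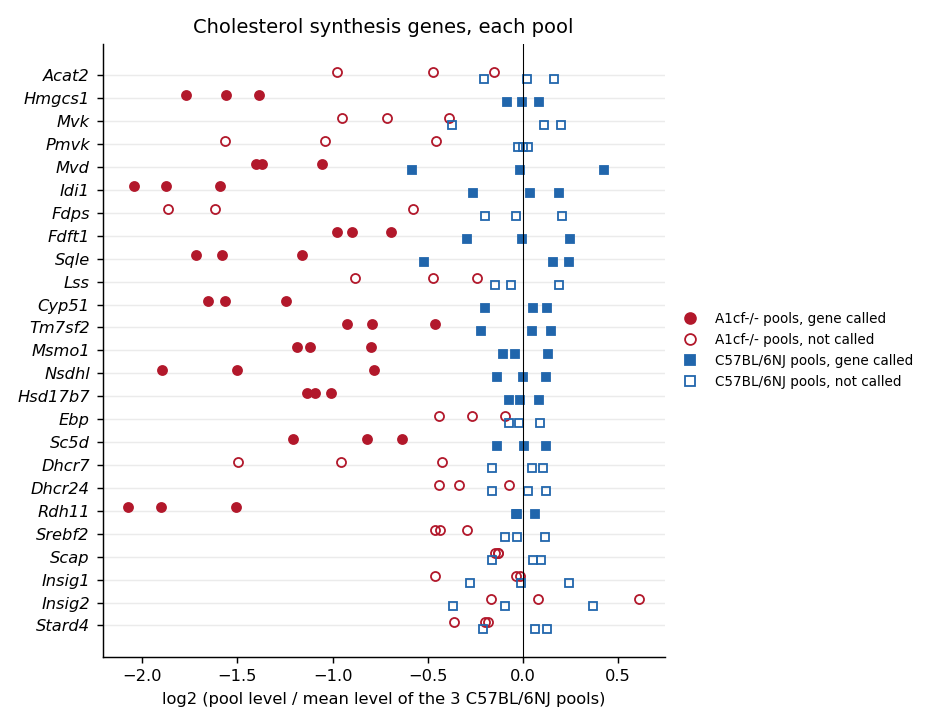
Level of cholesterol synthesis genes in each pool, as log2 of the pool's CPM over the mean CPM of the 3 wild-type 6NJ pools, which lies at 0. Circles are knockout pools and squares, drawn just under them, 6NJ pools, filled where the gene was called; Idi1 was at 10.6, 11.9 and 14.5 CPM in knockout pools and 36.5, 44.9 and 49.8 CPM in 6NJ pools.

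Fatty acids are burned in mitochondria and peroxisomes, and in liver the nuclear receptor PPARα, with its partner RXR, switches on the genes for their transport, oxidation and use for ketone bodies. Of 45 genes of this group tested, 14 rose and 2 fell, beside 1.50% of all genes rising and 1.48% falling. The estimate was above 0 for 40 of 45, with a median of 0.31, and the pools did not overlap for 30 of 45, beside 24.3% of all genes. Fatty acid hydroxylases of the Cyp4a family, whose copies are near-identical so that the split of reads between them is uncertain, were among the risers. Cyp4a10 had 1127, 1755 and 751 CPM in knockout pools, against 374, 334 and 406 CPM in 6NJ pools, or 1.71 ± 0.25 on the log2 scale (SE, adjusted p = 0.00914). Cyp4a14 had 931, 1696 and 435 CPM in knockout pools, against 301, 211 and 321 CPM in 6NJ pools, or 1.88 ± 0.39 on the log2 scale (SE, adjusted p = 0.0376), and lost its call without knockout pool 1 or 2 or without 6NJ pool 1, 2 or 3 (adjusted p = 0.0557 to 0.125). Cyp4a31 and Cyp4a32 were at 1.27 ± 0.27 and 0.57 ± 0.09 (adjusted p = 0.0371 and 0.00988), lost without knockout pool 1 or 2 or without 6NJ pool 1, 2 or 3 (adjusted p = 0.055 to 0.116) and without 6NJ pool 2 (adjusted p = 0.0509).

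Of 4 acyl-CoA thioesterases in the group, which release free fatty acids from CoA and are also near-identical copies, Acot1 and Acot2 rose, while Acot3 and Acot4 were at 0.84 and 0.59 (adjusted p = 0.134 and 0.146). Acot1, of the cytosol, had 78.5, 119 and 94.7 CPM in knockout pools, against 39.8, 29.7 and 25.7 CPM in 6NJ pools, or 1.62 ± 0.18 on the log2 scale (SE, adjusted p = 0.00198). Acot2, of mitochondria, had 17.3, 25.2 and 22.9 CPM in knockout pools, against 10.5, 6.73 and 9.02 CPM in 6NJ pools, or 1.32 ± 0.18 on the log2 scale (SE, adjusted p = 0.00625). Vnn1, a pantetheinase that is a strong PPARα target in mouse liver, had 134, 157 and 113 CPM in knockout pools, against 70, 38.6 and 56.1 CPM in 6NJ pools, or 1.29 ± 0.20 on the log2 scale (SE, adjusted p = 0.0104). For Acot1, Acot2 and Vnn1 every knockout pool lay above every 6NJ pool, and the calls held without any 1 pool. Pdk4, the kinase that shuts glucose carbon out of mitochondria, had 9.6, 10.5 and 14.5 CPM in knockout pools, against 5.85, 3.78 and 5.94 CPM in 6NJ pools, or 1.15 ± 0.21 on the log2 scale (SE, adjusted p = 0.0213), and lost its call without knockout pool 3 or without 6NJ pool 2 (adjusted p = 0.0608 to 0.078).

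The fatty acid carrier gene Fabp1 also rose. It had 3341, 3032 and 3049.8 CPM in knockout pools, against 2085, 1993 and 1592 CPM in 6NJ pools, or 0.73 ± 0.12 on the log2 scale (SE, adjusted p = 0.0136), not called without knockout pool 1 (adjusted p = 0.0962). Its promoter is shown because it was the only one of 8 risen genes with a promoter in the table to hold a DR1 element, a tandem repeat of AGGNCA with 1 base between the copies, the form that PPARα with RXR binds, against 38 of 11164 promoters (0.340%) of all genes tested. The repeat, searched on both strands, is in capitals in the 250 bases upstream of the start (chr6:71199629-71199878, plus strand, RefSeq GRCm38.p6).

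Fabp1: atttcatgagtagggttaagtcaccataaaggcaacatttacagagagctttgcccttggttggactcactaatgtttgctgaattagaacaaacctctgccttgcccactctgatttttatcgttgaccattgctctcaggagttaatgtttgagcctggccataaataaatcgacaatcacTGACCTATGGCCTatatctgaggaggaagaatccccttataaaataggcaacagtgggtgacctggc

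Further enzymes of the group rose by small amounts. Crat, carnitine acetyltransferase, was at 0.68 ± 0.11, the enoyl-CoA isomerase gene Eci1 at 0.65 ± 0.10, the fatty aldehyde dehydrogenase gene Aldh3a2 at 0.60 ± 0.13, the trifunctional protein subunit gene Hadhb at 0.45 ± 0.09 and the dienoyl-CoA reductase gene Decr1 at 0.41 ± 0.09 (log2 scale, SE; adjusted p = 0.0109 to 0.0471). Each was lost when 1 pool was left out, Crat without knockout pool 1 or without 6NJ pool 2 (adjusted p = 0.0562 to 0.0573), Eci1 without knockout pool 1 or without 6NJ pool 2 (adjusted p = 0.0582 to 0.0626), Aldh3a2 without knockout pool 1, 2 or 3 or without 6NJ pool 2 or 3 (adjusted p = 0.101 to 0.193), Hadhb without knockout pool 1, 2 or 3 or without 6NJ pool 2 (adjusted p = 0.0775 to 0.108) and Decr1 without knockout pool 1, 2 or 3 or without 6NJ pool 2 or 3 (adjusted p = 0.0822 to 0.188). The receptor gene Ppara had 311, 277 and 358 CPM in knockout pools, against 333, 308 and 286 CPM in 6NJ pools, which overlap. Cpt1a, the entry gate of mitochondria for long chains, was at 0.24 ± 0.08 (adjusted p = 0.165).

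Fgf21, a fasting hormone of the liver, was among the genes of the group that fell. It had 0.456, 1.26 and 0.895 CPM in knockout pools, against 2.48, 2.61 and 4 CPM in 6NJ pools, or -1.80 ± 0.36 on the log2 scale (SE, adjusted p = 0.0317), not called without knockout pool 1 or 3 or without 6NJ pool 2 or 3 (adjusted p = 0.0665 to 0.106). The 14 rises became 6, 9 and 10 without knockout pools 1, 2 and 3, and 5 without 6NJ pool 2, while the median stayed between 0.27 and 0.40. In the fit of all 14 pools, 1 rose and 1 fell, with a median of 0.31. With the muscle share as a covariate 3 rose and 1 fell, with a median of 0.41. With knockout pool 2 as the only knockout pool, 5 rose and 1 fell.

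**Figure D5:**
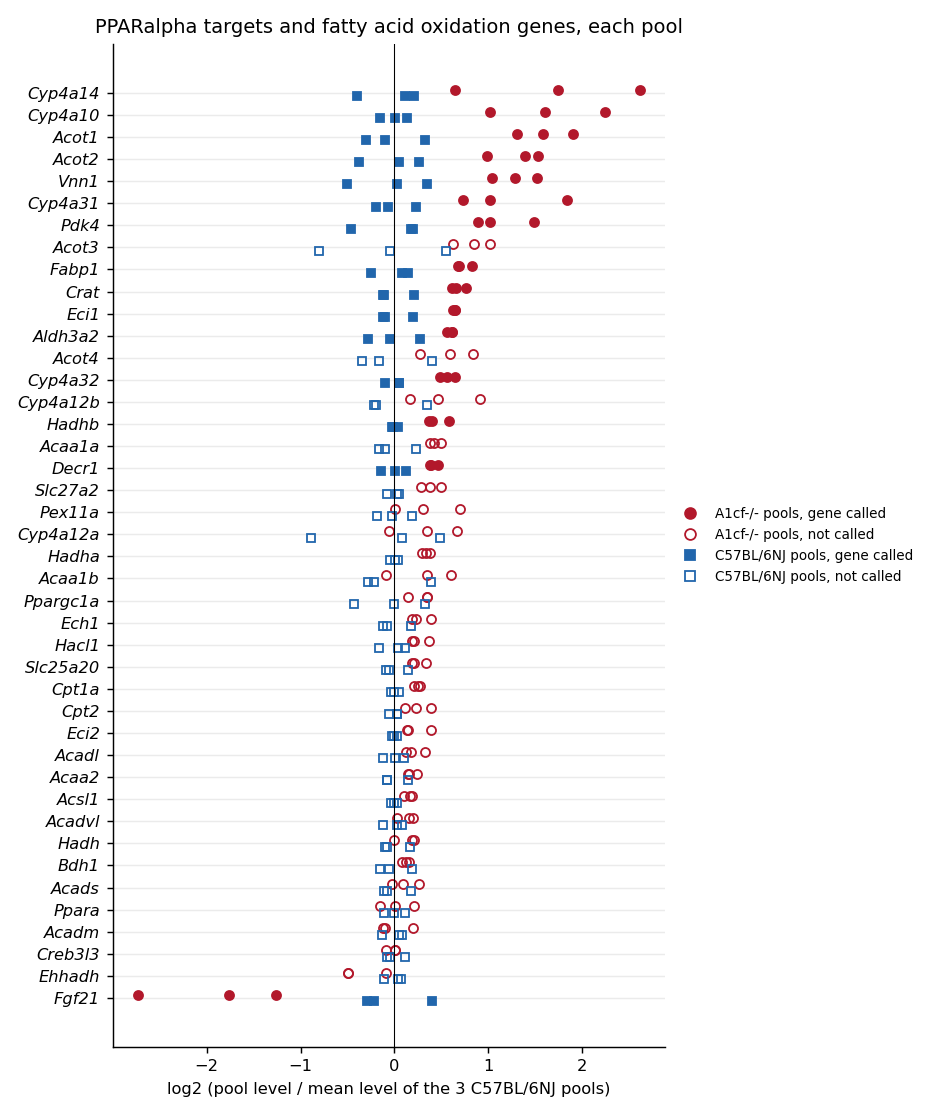
Level of genes of PPARα action and fatty acid oxidation in each pool, as log2 of the pool's CPM over the mean CPM of the 3 wild-type 6NJ pools, which lies at 0. Circles are knockout pools and squares, drawn just under them, 6NJ pools, filled where the gene was called; Acot1 was at 78.5, 119 and 94.7 CPM in knockout pools and 39.8, 29.7 and 25.7 CPM in 6NJ pools.

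Genes of lipid storage rose in part, together with markers of fat cells. Of 21 lipid droplet genes tested, 5 rose and none fell, beside 1.50% of all genes rising. Cidea, a droplet fusion protein of brown fat and of fatty liver, had 52.1, 38.3 and 85.1 CPM in knockout pools, against 20.5, 3.72 and 13.7 CPM in 6NJ pools, or 2.22 ± 0.49 on the log2 scale (SE, adjusted p = 0.0439), and lost its call without knockout pool 1, 2 or 3 or without 6NJ pool 3 (adjusted p = 0.0559 to 0.143). Plin4, a droplet coat protein, had 87.9, 72 and 113 CPM in knockout pools, against 49.4, 35.6 and 43.6 CPM in 6NJ pools, or 1.09 ± 0.17 on the log2 scale (SE, adjusted p = 0.0108). The lipases Lipe and Mgll, which split diglycerides and monoglycerides, were at 0.88 ± 0.12 and 0.71 ± 0.09 (adjusted p = 0.00625 and 0.00374). The fatty acid transporter gene Cd36 had 135, 141 and 144 CPM in knockout pools, against 107, 69.3 and 88.7 CPM in 6NJ pools, or 0.67 ± 0.14 on the log2 scale (SE, adjusted p = 0.0358), not called without knockout pool 1, 2 or 3 or without 6NJ pool 2 or 3 (adjusted p = 0.0743 to 0.125). The 5 rises became 3 without knockout pool 1, without knockout pool 3 or without 6NJ pool 3. With the muscle share as a covariate, with knockout pool 2 as the only knockout pool, or in the fit of all 14 pools, none of the list was called.

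Of 8 fat cell markers tested out of 14 written, 4 rose, beside 1.50% of all genes rising. They were Cfd, Lipe, Cidea and Pparg, the regulator of fat cell formation. The summed level of the whole list was 2049.6 to 4739.7 CPM in knockout pools and 3106 to 3994 CPM in 6NJ pools, ranges that overlap, and most of it came from Car3, which had 3549.9, 1833 and 4321 CPM in knockout pools, against 3892, 3036 and 3419 CPM in 6NJ pools. Adipoq, adiponectin, which fat cells alone make in quantity, had 12, 0 and 18 reads in knockout pools, against 0, 0 and 5 reads in 6NJ pools. Plin1, the droplet coat of fat cells, had 19, 1 and 21 reads in knockout pools, against 1, 0 and 0 reads in 6NJ pools. The part of fat cell RNA in the rises of Cfd, Lipe, Plin4 and Cidea was not tested. Pparg was at 0.86 ± 0.17 (adjusted p = 0.0327), lost without knockout pool 1 or 3 or without 6NJ pool 2 or 3 (adjusted p = 0.0743 to 0.109).

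Synthesis of fatty acids and triglyceride held 1 rise and 1 fall in 28 genes tested, beside 1.50% of all genes rising and 1.48% falling. Mogat2, a monoglyceride acyltransferase best known from the gut, had 2.08, 1.19 and 5.92 CPM in knockout pools, against 0.465, 0.06 and 0.336 CPM in 6NJ pools, or 3.44 ± 0.71 on the log2 scale (SE, adjusted p = 0.0348), and lost its call without knockout pool 1 or 3 or without 6NJ pool 2 or 3 (adjusted p = 0.0764 to 0.101). Fatty acid synthase, Fasn, had 582, 437 and 694 CPM in knockout pools, against 1076, 884 and 866 CPM in 6NJ pools, or -0.72 ± 0.16 on the log2 scale (SE, adjusted p = 0.0477), and lost its call without knockout pool 1 or 2 or without 6NJ pool 1, 2 or 3 (adjusted p = 0.0704 to 0.189). The desaturase gene Scd1 was at -0.94 ± 0.22 (adjusted p = 0.0537). Mogat2 needed the knockout pools to pass the filter on low counts. Under the stricter filter, 0 of 25 genes of this synthesis list were called. Among 35 genes of lipoprotein assembly and clearance, Apoc2, the activator of lipoprotein lipase, rose and Pltp, a phospholipid transfer protein, fell. Apoc2 was at 0.73 ± 0.09 on the log2 scale (SE, adjusted p = 0.00374). Pltp was at -0.93 ± 0.19 on the log2 scale (SE, adjusted p = 0.0328), lost without knockout pool 1, 2 or 3 or without 6NJ pool 2 (adjusted p = 0.0668 to 0.119). Mttp, which loads lipid onto apoB, had 338, 367 and 350.1 CPM in knockout pools, against 309, 302 and 321 CPM in 6NJ pools, or 0.18 ± 0.08 on the log2 scale (SE, adjusted p = 0.293).

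Asparagine synthetase, Asns, makes asparagine from aspartate. It had 6 reads in each knockout pool, against 73, 532 and 330 reads in 6NJ pools. On the CPM scale it had 0.195, 0.205 and 0.207 CPM in knockout pools, against 2.83, 16 and 9.24 CPM in 6NJ pools, so the 6NJ pools differed widely among themselves and none came near a knockout pool. The difference was -5.51 ± 0.67 on the log2 scale (SE, adjusted p = 0.00351), kept without any 1 pool. Asns is a classic target of the transcription factor ATF4, which acts in amino acid shortage through a response element known from the human gene. Its letters, TGATGAAAC, were searched on both strands and stand in capitals in the 250 bases upstream of mouse Asns (chr6:7693210-7693459, minus strand, RefSeq GRCm38.p6); 18 of 11164 promoters (0.161%) of all genes tested hold them.

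Asns: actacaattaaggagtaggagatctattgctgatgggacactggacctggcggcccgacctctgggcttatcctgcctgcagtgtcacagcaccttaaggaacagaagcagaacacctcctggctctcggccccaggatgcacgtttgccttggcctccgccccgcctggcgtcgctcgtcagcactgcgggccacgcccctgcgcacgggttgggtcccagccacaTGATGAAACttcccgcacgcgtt

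Few other stress genes of this type passed the test. Of 35 genes of the integrated stress and unfolded protein responses, 3 fell, Asns, Fgf21 and Edem1, and 1 rose, Atf3, an early stress factor. Of all genes tested, 1.48% fell and 1.50% rose. Edem1, of protein quality control, was at -0.47 ± 0.10 and Atf3 at 1.29 ± 0.26 (adjusted p = 0.0358 and 0.0323). Neither was called in some fits that left out 1 pool, Edem1 without knockout pool 1, 2 or 3 or without 6NJ pool 2 or 3 (adjusted p = 0.053 to 0.189) and Atf3 without knockout pool 1 or 3 or without 6NJ pool 2 or 3 (adjusted p = 0.0795 to 0.101). The estimate was below 0 for 25 of 35, with a median of -0.25. Of the 35, 13 had an unadjusted p under 0.05, beside 2941 of all 15942 genes tested.

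Of 47 enzymes of amino acid and urea metabolism tested, 6 fell and none rose, beside 1.48% of all genes falling, and the median was -0.07. Cth, which makes cysteine, had 150, 142 and 157 CPM in knockout pools, against 279, 276 and 271 CPM in 6NJ pools, or -0.88 ± 0.08 on the log2 scale (SE, adjusted p = 0.000756), with no overlap. In the urea cycle, Cps1 had 2629.7, 2432 and 2956 CPM in knockout pools, against 3755, 4555 and 4345 CPM in 6NJ pools, or -0.66 ± 0.12 on the log2 scale (SE, adjusted p = 0.0193), and lost its call without knockout pool 1 or 2 or without 6NJ pool 2 (adjusted p = 0.0586 to 0.127). Ass1 was at -0.71 ± 0.13 and Arg1 at -0.43 ± 0.09 (adjusted p = 0.0227 and 0.0328), lost without knockout pool 1 or 2 or without 6NJ pool 2 (adjusted p = 0.0582 to 0.125) and without knockout pool 1, 2 or 3 or without 6NJ pool 2 (adjusted p = 0.0815 to 0.202). Another urea cycle gene, Otc, was at -0.14 ± 0.09 (adjusted p = 0.413). Agxt, which clears glyoxylate, was at -0.59 ± 0.11 (adjusted p = 0.026), lost without knockout pool 1 or 3 or without 6NJ pool 2 (adjusted p = 0.0845 to 0.132). The 6 calls became 2 without knockout pool 1 or 6NJ pool 2, 3 without knockout pool 2, 4 without knockout pool 3, 1 in the fit of all 14 pools, and 0 with the muscle share as a covariate.

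The urea cycle genes are also markers of the periportal zone. There 4 of 24 genes tested fell and 1 rose, beside 1.48% of all genes falling and 1.50% rising. The fourth that fell was Cdh1, E-cadherin, with 7.36, 5.53 and 8.61 CPM in knockout pools, against 11.6, 20.7 and 16.9 CPM in 6NJ pools, or -1.20 ± 0.22 on the log2 scale (SE, adjusted p = 0.0216), not called without knockout pool 1 or 2 or without 6NJ pool 2 or 3 (adjusted p = 0.0542 to 0.0966). The riser was Pck1, the gate of gluconeogenesis, at 0.56 ± 0.11 on the log2 scale (SE, adjusted p = 0.0315), not called without knockout pool 1, 2 or 3 or without 6NJ pool 2 or 3 (adjusted p = 0.0567 to 0.141). None of the 5 was called without knockout pool 1, without knockout pool 2 or without 6NJ pool 2. Of 23 pericentral genes, Lect2, a hormone of hepatocytes, fell, at -1.19 ± 0.11 on the log2 scale (SE, adjusted p = 0.000532). Medians were -0.06 over periportal and -0.16 over pericentral genes.

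Of 24 bile acid genes, 3 fell and 1 rose, beside 1.48% of all genes falling and 1.50% rising, and each of these calls was lost without some single pool. Cyp2c70, which makes muricholic acids in mice, had 108, 105 and 140.4 CPM in knockout pools, against 161, 418 and 382 CPM in 6NJ pools, or -1.44 ± 0.30 on the log2 scale (SE, adjusted p = 0.0348), and lost its call without knockout pool 1, 2 or 3 or without 6NJ pool 2 or 3 (adjusted p = 0.0825 to 0.159). Cyp7b1, of the alternative pathway of synthesis and higher in males, had 127, 135 and 137 CPM in knockout pools, against 159, 367 and 395 CPM in 6NJ pools, or -1.21 ± 0.27 on the log2 scale (SE, adjusted p = 0.0471), and lost its call without knockout pool 1, 2 or 3 or without 6NJ pool 2 or 3 (adjusted p = 0.115 to 0.194). The export pump gene Abcb11 was at -0.52 ± 0.09 and the uptake carrier gene Slco1a4 at 0.86 ± 0.16 (adjusted p = 0.0146 and 0.0262), lost without knockout pool 1 or 3 or without 6NJ pool 2 (adjusted p = 0.0623 to 0.119) and without knockout pool 1, 2 or 3 or without 6NJ pool 2 (adjusted p = 0.0671 to 0.12). Cyp7a1, the rate-limiting enzyme of the main pathway, had 93.4, 39.7 and 166 CPM in knockout pools, against 87.8, 182 and 43.4 CPM in 6NJ pools. These ranges overlap, and the difference was -0.07 ± 0.53 on the log2 scale (SE, adjusted p = 0.963).

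Mup20, or darcin, and Mup21 rose among 21 major urinary proteins, pheromone carriers that males make under pulsed growth hormone. Of all genes tested, 1.50% rose. Mup20 had 3471, 3397 and 3698 CPM in knockout pools, against 803, 1133 and 1137 CPM in 6NJ pools, or 1.78 ± 0.14 on the log2 scale (SE, adjusted p = 0.000266). Mup21 had 270.1, 319 and 277 CPM in knockout pools, against 63.6, 78.4 and 124 CPM in 6NJ pools, or 1.70 ± 0.21 on the log2 scale (SE, adjusted p = 0.00374); the calls held without any 1 pool, though near-identical copies make the split of reads between Mup genes uncertain. Mup20 was the only one of 28 male-biased liver genes that rose, and Cyp7b1 the only one that fell. Of 26 female-biased genes, 4 fell and none rose, beside 1.48% of all genes falling, and the median was -0.50. Both counts depended on 6NJ pool 1. Without it, 1 of 28 male-biased genes rose and 5 fell, and 4 of 28 female-biased genes rose and 5 fell. In that fit 292 of all genes rose and 353 fell. Hao2, a peroxisomal hydroxyacid oxidase, had 0.0651, 0.102 and 0 CPM in knockout pools, against 2.25, 0.48 and 0.952 CPM in 6NJ pools, or -4.33 ± 0.83 on the log2 scale (SE, adjusted p = 0.027), and lost its call without knockout pool 1, 2 or 3 (adjusted p = 0.0605 to 0.121). Slc22a27 was at -2.94 ± 0.48, the prolactin receptor gene Prlr at -0.82 ± 0.10 and the neurotrophin receptor gene Ntrk2 at -2.48 ± 0.39 (adjusted p = 0.0128, 0.00351 and 0.0109). Ntrk2 was not called without knockout pool 1 or 3 (adjusted p = 0.051 to 0.0628). Hao2 passed the filter on low counts through the 6NJ pools alone. Under the stricter filter, 3 of 21 female-biased genes fell and 0 rose.

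Secreted and stress proteins of hepatocytes gave few calls, to be read beside 1.50% of all genes rising and 1.48% falling. Of 49 hepatocyte identity genes, Mug2, a protease inhibitor, was at -0.91 ± 0.11 on the log2 scale (SE, adjusted p = 0.00242) and Gc, the vitamin D carrier, at -0.42 ± 0.09 on the log2 scale (SE, adjusted p = 0.0441); Gc was lost without knockout pool 1, 2 or 3 or without 6NJ pool 2 or 3 (adjusted p = 0.0877 to 0.243). Of 36 complement and coagulation genes, the lectin Mbl1 rose, at 0.37 ± 0.08 on the log2 scale (SE, adjusted p = 0.0486). That call was lost without knockout pool 1, 2 or 3 or without 6NJ pool 1, 2 or 3 (adjusted p = 0.0532 to 0.194). The lectin Mbl2, the inhibitor Cfi and the protease C1s1 fell, at -0.59 ± 0.12, -0.48 ± 0.08 and -0.43 ± 0.09 (adjusted p = 0.0328, 0.0173 and 0.0389). Those were lost without knockout pool 1, 2 or 3 or without 6NJ pool 2 (adjusted p = 0.0706 to 0.11), without knockout pool 1, 2 or 3 or without 6NJ pool 2 (adjusted p = 0.0534 to 0.138) and without knockout pool 1, 2 or 3 or without 6NJ pool 1, 2 or 3 (adjusted p = 0.058 to 0.192), in that order. Of 27 NRF2 and oxidative stress genes, 2 rose and 0 fell, while the estimate was below 0 for 20 and the median was -0.08. Osgin1, a growth inhibitor induced by oxidative stress, was at 1.00 ± 0.14 on the log2 scale (SE, adjusted p = 0.00744). Cbr3, a carbonyl reductase, was at 1.56 ± 0.33 on the log2 scale (SE, adjusted p = 0.04). Cbr3 was lost without knockout pool 1 or 3 or without 6NJ pool 2 or 3 (adjusted p = 0.108 to 0.153). DESeq2 called 2 of the list higher and 3 lower, beside 445 and 458 of all genes.

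Early response genes rose in places, to be read beside 1.50% of all genes rising and 1.48% falling. Egr1 and Atf3 were the 2 risers among 30 heat shock and immediate early genes, with Egr1 at 1.04 ± 0.20 on the log2 scale (SE, adjusted p = 0.0262), lost without knockout pool 1 or 3 or without 6NJ pool 2 or 3 (adjusted p = 0.05 to 0.0854). Of 26 p53 targets, the growth arrest genes Gadd45a and Gadd45b were at 0.94 ± 0.20 and 1.09 ± 0.23 (adjusted p = 0.0396 and 0.0398), lost without knockout pool 1, 2 or 3 or without 6NJ pool 2 or 3 (adjusted p = 0.0966 to 0.137) and without knockout pool 1, 2 or 3 or without 6NJ pool 1, 2 or 3 (adjusted p = 0.0638 to 0.171). Of 22 clock genes, Noct, a rhythmic phosphatase, and Ciart, a repressor of the clock, fell, at -1.25 ± 0.16 and -0.86 ± 0.19 (adjusted p = 0.00456 and 0.0457). Ciart was lost without knockout pool 1, 2 or 3 or without 6NJ pool 1 or 2 (adjusted p = 0.0721 to 0.187). Hours of collection are not given in the sources used here.

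Markers of other liver cells gave few calls, to be read beside 1.50% of all genes rising and 1.48% falling. Of 47 stellate cell and fibrosis genes, the basement membrane collagen gene Col4a2 was at 0.85 ± 0.09 on the log2 scale (SE, adjusted p = 0.00146) and Col15a1 at -1.24 ± 0.18 on the log2 scale (SE, adjusted p = 0.007), while the median of the list was 0.30 and 31 had an unadjusted p under 0.05. DESeq2 called 9 of the list higher and 3 lower, beside 445 and 458 of all genes. Of all 15942 genes tested, 2941 had an unadjusted p under 0.05. Of 15 B and plasma cell markers the immunoglobulin gene Igkc fell, with 11.2, 12.3 and 20.8 CPM in knockout pools, against 47.1, 21.3 and 64.5 CPM in 6NJ pools, or -1.59 ± 0.36 on the log2 scale (SE, adjusted p = 0.0492), not called without knockout pool 1, 2 or 3 or without 6NJ pool 1 or 3 (adjusted p = 0.0661 to 0.202); the median was -1.23. Of 39 interferon-stimulated genes, Ifi27 rose, at 1.07 ± 0.10 on the log2 scale (SE, adjusted p = 0.00085). Of 22 written markers of exocrine pancreas, 12 had no read in the 6 pools and 2 were tested. Of these 2, Cela1 was at -0.77 ± 0.14 on the log2 scale (SE, adjusted p = 0.0193), lost without knockout pool 1 or 3 or without 6NJ pool 2 (adjusted p = 0.0737 to 0.11). Of 34 liver tumour and oncofetal genes, Meg3 fell and the imprinted RNA H19 rose. H19 passed the filter on low counts through the knockout pools alone. Under the stricter filter, 1 of 18 genes of this list fell and 0 rose. H19 had 3.26, 0.512 and 1.82 CPM in knockout pools, against 0.232, 0.06 and 0.252 CPM in 6NJ pools, or 3.35 ± 0.71 on the log2 scale (SE, adjusted p = 0.0391), not called without knockout pool 1 or 3 or without 6NJ pool 1, 2 or 3 (adjusted p = 0.0557 to 0.17). Rbm47 was the only one of 54 splicing factors called, 1 of 40 sugar metabolism genes was called (Pck1), and 1 of 11 genes that differ between C57BL/6 substrains (Mup21).

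No gene passed edgeR's test in 15 further lists, given here with the number tested, the number at an unadjusted p under 0.05 and the number that DESeq2 called. Over all genes these numbers were 15942, 2941 and 903. The lists were xenobiotic metabolism (52, 17 and 4), acute-phase proteins (29, 7 and 1), cytokines and chemokines (23, 3 and 1), antigen presentation (21, 3 and 0) and cell cycle genes (34, 4 and 1). Among cell markers they were Kupffer cells and macrophages (29, 8 and 0), neutrophils (6, 1 and 0), T and NK cells (12, 1 and 1), endothelium (28, 4 and 1), cholangiocytes and progenitors (21, 7 and 1), red cells and platelets (9, 2 and 1), smooth muscle and heart (9, 3 and 1) and skin, gut and mesothelium (10, 2 and 0). The last were mitochondrially encoded RNAs (15, 0 and 0) and sex chromosome genes (5, 2 and 0). Without 6NJ pool 1, 7 of 30 acute-phase genes fell and 0 rose. In the same fit 4 of 53 genes of xenobiotic metabolism rose and 0 fell, beside 292 of all genes rising and 353 falling. Several others of these lists held a few calls in fits that left out 1 pool.

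Near A1cf, 2 of 56 genes tested within 5000000 bases of A1cf fell and none rose, which is 3.57%, beside 2.98% of all genes. They were Mbl2, given above, and Atad1, an ATPase that clears misplaced membrane proteins, with 27, 28.9 and 26.9 CPM in knockout pools, against 42, 35.8 and 40.9 CPM in 6NJ pools. Atad1 differed by -0.52 ± 0.09 on the log2 scale (SE, adjusted p = 0.0182) and was not called without knockout pool 1 or 3 (adjusted p = 0.078 to 0.119).

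The knockout effect was then set against the effect in livers labelled A1cf_Tg/+ over 6J livers, in a fit of all 14 pools that tested the difference between the effects. In livers labelled A1cf_Tg/+ the A1cf count went against the label: it was 156 to 174 deposited CPM in them and 216 to 279 deposited CPM in 6J livers, a log2 difference of -0.66 (adjusted p = 0.00944). The knockout effect minus this one was -2.46 (adjusted p = 8.17e-05) on the log2 scale, so the fall was larger in knockout livers. Without 6J pool 2, A1cf was at -0.72 in livers labelled A1cf_Tg/+, and the difference between the effects was -2.40 (adjusted p = 0.000185). Of 16295 genes tested, 167 differed between the effects (1.02%), and 314 did without 6J pool 2. The number was 24, 50 and 46 without knockout pools 1, 2 and 3, and 205, 37 and 36 without 6NJ pools 1, 2 and 3.

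Genes of PPARα action and fatty acid oxidation differed between the effects for 8 of 45 tested, and also for 8 without 6J pool 2. Among them were Acot1, Acot2, Fabp1, Eci1 and Cyp4a32, and also Acot3 and Acot4, which were not called in knockout livers. Acot2 and Eci1 were not called in livers labelled A1cf_Tg/+ (adjusted p = 0.0875 and 0.0713). In livers labelled A1cf_Tg/+ none of the group rose and 8 fell, with a median of -0.31, where 4.73% of all genes rose and 3.58% fell. Without 6J pool 2, 2 of the group rose and 8 fell there, beside 6.62% and 4.19% of all genes. Acot1 was at 1.62 in knockout over 6NJ livers and at -1.81 in livers labelled A1cf_Tg/+ over 6J livers, a difference of 3.43 (adjusted p = 0.000435). Fabp1 was at 0.73 and -0.73 in the same order, a difference of 1.46 (adjusted p = 0.0452). Of the cholesterol synthesis genes, 4 fell in livers labelled A1cf_Tg/+, with a median of -0.53, and none differed between the effects. Without 6J pool 2, 2 of them fell there, with a median of -0.40. Hmgcs1 and Rdh11 then differed between the effects, by -1.25 and -1.24 (adjusted p = 0.0464 and 0.0367). Rbm47 was at 0.53 in knockout livers and at -0.44 in livers labelled A1cf_Tg/+, a difference of 0.97 (adjusted p = 0.0357).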

How the data were processed

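Total RNA was extracted with TRIzol, pooled, selected with oligo(dT) and sequenced on an Illumina HiSeq2000, per the labels' protocols. The submitters' processing notes name bcl2fastq, STAR 2.0.4b, Subread, featureCounts 1.45 and GRCm38, with no roles; the annotation release, the strand setting and the treatment of reads that match several places are not given in the sources used here, so overlapping, antisense and near-identical genes are uncertain. The authors deposited raw counts, CPM and RPKM for each gene of 1 pool per table. The deposited CPM and RPKM were checked against the deposited counts. Gene coordinates come from the deposited tables. Gene names come from a gene name list (40254 of 41388 IDs) and, where it had none, from GENCODE M21. Gene types come from GENCODE M21 (40340 IDs matched).

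Counts were tested with edgeR 4.0.16 in R 4.3.3 (filterByExpr with a minimum count of 10 and a minimum total of 15, TMM, quasi-likelihood F-test on 6 pools with group as the only term, Benjamini-Hochberg threshold 0.05). DESeq2 1.42.0, other filters, a block, a covariate and left-out pools were alternatives; the difference from the transgenic effect came from 1 fit of 14 pools. The procedure was tested on simulated counts. Skeletal muscle genes were 101 written ones plus genes with r of at least 0.95 to 8 core muscle genes over the other 8 livers and a log2 range of at least 2. Named genes were A1cf, the 15 largest rises and falls (mean of at least 2 CPM, no overlap, muscle and unnamed genes passed over), up to 4 members of smallest p per list, 4 muscle genes of highest CPM, 6 genes by the difference, and called genes within 5000000 bases of A1cf; any further list member in the text was picked with its values in view. Some genes that the rule names are not reported here. The members and the 46 lists were chosen with earlier results of these data known. Floors cover counting error only. A gene could pass the filter on low counts only with the pools of the group where it was high. Such genes include En2, H19 and Mogat2 with knockout pools, and Asns and Hao2 with 6NJ pools.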

Additional observations from a re-analysis of the deposited data

Results flagged for a closer look

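Each effect here is the difference, on the log2 scale, of the knockout effect (over 6NJ) minus the effect in livers labelled A1cf_Tg/+ (over 6J), tested in 1 edgeR fit with adjustment over 16295 genes; the pair in brackets gives the knockout effect and then the transgenic one. A1cf RNA was itself lower in livers labelled A1cf_Tg/+, so directions there stand for the labels and not for a known gain of A1cf. A difference can pass where only 1 effect of the pair passed its own test, so opposite signs in a pair do not mean that both effects were called. The causes of these differences were not tested.

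For the targeted gene, A1cf, the difference was -2.46 (-3.12 against -0.66, adjusted p = 8.17e-05; -2.40 without 6J pool 2, adjusted p = 0.000185). For Rbm47 it was 0.97 (0.53 against -0.44, adjusted p = 0.0357; 1.08 without 6J pool 2, adjusted p = 0.00832).

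Of genes of fatty acid use, Acot1 differed by 3.43 (1.62 against -1.81, adjusted p = 0.000435; 3.47 without 6J pool 2, adjusted p = 0.000541), Acot2 by 2.11 (1.32 against -0.79, adjusted p = 0.0299; 1.92 without 6J pool 2, adjusted p = 0.0252), Acot3 by 5.57 (0.84 against -4.73, adjusted p = 0.0428; 4.22 without 6J pool 2, adjusted p = 0.018) and Acot4 by 2.70 (0.59 against -2.11, adjusted p = 0.0168; 2.37 without 6J pool 2, adjusted p = 0.00847), members of 1 family whose copies are near-identical. Acot3 and Acot4 were not called in knockout livers (adjusted p = 0.134 and 0.146). Acot2, Eci1 and Lipe were not called in livers labelled A1cf_Tg/+ over 6J livers (adjusted p = 0.0875, 0.0713 and 0.347). Fabp1 differed by 1.46 (0.73 against -0.73, adjusted p = 0.0452; 1.60 without 6J pool 2, adjusted p = 0.0138), Eci1 by 1.02 (0.65 against -0.37, adjusted p = 0.0225; 1.06 without 6J pool 2, adjusted p = 0.0162) and Cyp4a32 by 1.08 (0.57 against -0.51, adjusted p = 0.0294; 1.19 without 6J pool 2, adjusted p = 0.00462). Among lipases, Lipe differed by 1.15 (0.88 against -0.27, adjusted p = 0.0493; 1.18 without 6J pool 2, adjusted p = 0.0374) and Mgll by 1.32 (0.71 against -0.60, adjusted p = 0.0209; 1.30 without 6J pool 2, adjusted p = 0.018).

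Asns differed by -8.76 (-5.51 against 3.26, adjusted p = 0.000166; -8.93 without 6J pool 2, adjusted p = 0.000469), Meg3 by -5.04 (-2.21 against 2.83, adjusted p = 0.000435; -4.69 without 6J pool 2, adjusted p = 0.000753), Cdh1 by -2.92 (-1.20 against 1.72, adjusted p = 0.032; -2.80 without 6J pool 2, adjusted p = 0.0299) and Cela1 by -2.03 (-0.77 against 1.27, adjusted p = 0.0378; -1.80 without 6J pool 2, adjusted p = 0.0148). Of the largest changes, En2 differed by 8.74 (5.49 against -3.25, adjusted p = 0.000873; 7.80 without 6J pool 2, adjusted p = 0.00462), Nipsnap2 by 2.34 (1.87 against -0.47, adjusted p = 0.00568; 2.02 without 6J pool 2, adjusted p = 0.000541), Enho by -4.09 (-3.63 against 0.47, adjusted p = 0.0209; -4.25 without 6J pool 2, adjusted p = 0.0155), Adgrf1 by -2.55 (-2.23 against 0.33, adjusted p = 0.0487; -2.50 without 6J pool 2, adjusted p = 0.0462), Capn8 by -4.91 (-2.07 against 2.84, adjusted p = 0.014; -4.48 without 6J pool 2, adjusted p = 0.000541) and Ccdc171 by -2.48 (-1.73 against 0.75, adjusted p = 0.000863; -2.39 without 6J pool 2, adjusted p = 0.00105). Hsf2bp, not called in knockout livers, differed by -5.80 (-1.25 against 4.56, adjusted p = 0.000165; -5.61 without 6J pool 2, adjusted p = 0.000469).

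Acta1 differed by 17.79 (9.01 against -8.80, adjusted p = 0.0451; 10.01 without 6J pool 2, adjusted p = 0.000806). That value rests on 6J pool 2, with 778 deposited CPM of Acta1 against 0.607 to 0.969 in the other 6J pools.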

How the results depend on the processing

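The fall of A1cf kept its call in each alternative run. The count of called genes (475, and 439 among liver genes) was 903 and 865 by DESeq2, 1079 and 1020 without a filter on low counts, 61 and 61 with all 14 pools in the fit, 18 and 15 with the muscle share as a covariate, and 55 and 51 with knockout pool 2 as the only knockout pool, which assumes that this pool varies like the others; that last setting, the muscle lists alone and the fit without 6J pool 2 were chosen after seeing the data. It ran from 137 to 645 and from 114 to 610 when any 1 pool was left out. The share of higher calls was 50.3%, against 36.1% with 14 pools, 72.2% with the covariate and 62.5% without knockout pool 2. Muscle share did not overlap between knockout and 6NJ pools, so the fit with it as a covariate cannot part it from genotype. Same-numbered pools did not deviate together (correlations 0.057, 0.036 and 0.008), so the numbers were not taken as pairs; a fit with the replicate number as a block called 415 genes, 381 of them liver genes. The gap in muscle share stayed between 0.0199 and 0.039 percentage points without any 1 pool, where the smallest possible exact p is 0.2. The 167 differences from the transgenic effect became 318 with the covariate, 66 with the block, 260 under the stricter filter and 314 without 6J pool 2, and ran from 24 to 205 without 1 pool. 

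Estimates near 0 changed sign: Apobec1 was at 0.11 with the covariate, 0.02 without 6NJ pool 3 and 0.00 with knockout pool 2 alone. Apob was at 0.01 by DESeq2, by its size factors, under the stricter filter and without knockout pool 3, at 0.00 with the block, with 14 pools and with muscle genes removed, at 0.07 with the covariate, 0.08 without 6NJ pool 3 and 0.03 with knockout pool 2 alone. Ppara was at -0.23, -0.02 and -0.15 with the covariate, without 6NJ pool 3 and with knockout pool 2 alone, and at -0.07 without knockout pool 3. Cyp7a1 was at 0.31 without knockout pool 2 and 0.60 without 6NJ pool 2. Without any 1 pool Apobec1 lay between -0.26 and 0.02, Apob between -0.04 and 0.08, Ppara between -0.07 and 0.11, and Cyp7a1 between -0.65 and 0.60. None of these passed the test. The cause was not tested for any of these. Besides A1cf, of 112 called genes followed across settings, 49 kept the call in all 6 fits without 1 pool. With 3 pools a group, changes of lowly counted genes limit what can be seen.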
